A study of Mus musculus with 10 samples.

Results

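WT-only promoter contacts were described here: the pairs of chromatin fragments that scored 5 or more in both wild-type (WT) libraries of bone marrow progenitors, and that did not reach 5 in both libraries of any of the 3 mutant groups. There were 9087 such pairs among the 88624 pairs listed for progenitors, and they made up 29.4% of the 30921 pairs that WT progenitors held, where a group is said to hold a pair when both of its libraries score 5 or more. At thresholds of 6, 8 and 10, raised for WT and mutants alike, there were 4613, 1498 and 558. Only 2746, 309 and 65 of the 9087 had both WT libraries at or above 6, 8 and 10. The other pairs counted at those thresholds were held by a mutant group at 5. When either library sufficed for a mutant group at 5, there were 2428. The WT-only pairs were chosen by their scores in the 8 progenitor libraries, so those scores are given as a description. The 2 WT neutrophil libraries took no part in the choice.

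Promoter-capture Hi-C joins crosslinked fragments that lay close together in the nucleus, cut here with HindIII, and enriches the joins that carry a captured promoter fragment (the bait); the partner is called the other end. All mice were C57BL/6, and each of the 5 groups had 2 biological replicates. The progenitors (HSPC) were lineage-negative marrow cells from a depletion kit, taken from Wild-type mice, from Npm1flox-cA/+;Mx1-Cre+ mice (Npm1c), from Flt3ITD/+ mice (Flt3-ITD) and from Npm1flox-cA/+;Flt3ITD/+;Mx1-Cre+ mice (double mutant, DM). The fifth group was neutrophils of Wild-type marrow from an isolation kit. In the Npm1c and DM groups the mutant allele depends on Mx1-Cre, an inducible recombinase that also acts outside blood, and neither the WT nor the Flt3-ITD genotype names this Cre. The lineage-negative fraction is a mixture of progenitor types, and a fall in a contact and a fall in the share of cells that have it cannot be told apart in it. The labels used here give no age, sex, induction scheme or number of pooled mice, and the files hold no gene expression by which the cell types could be checked.

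Promoters are brought close to distant enhancers, and to one another, by loops held by cohesin and CTCF and by the clustering of active or silent chromatin. Blood cells change many of these contacts as they mature. Npm1c sends the chaperone nucleophosmin to the cytoplasm and is tied to high HOX gene activity, and Flt3-ITD keeps the cytokine receptor FLT3 signalling; the pair is a frequent combination in acute myeloid leukaemia.

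The promoters below belong to the fragments on which the description turns. They are given on the strand of the gene, from 250 bases before to 50 after its start, from RefSeq on GRCm38.p6 (the assembly also called mm10). Fgfbp3 (chr19:36919550-36919849) and Kif11 (chr19:37376132-37376431) mark the ends of a dense block of WT-only contacts, and Hhex (chr19:37434591-37434890) belongs to the next bait beyond Kif11. Pqbp1 (chrX:7899220-7899519) and Timm17b (chrX:7899086-7899385) overlap on opposite strands in the bait with the most WT-only pairs. Mcm3 (chr1:20820263-20820562) and Hjurp (chr1:88277530-88277829) are the ends of a pair at exactly 0 in every mutant library. Capitals mark every match, on either strand, to AGATAA (bound by GATA factors), CCGGAAG (ETS factors), CCAAT (NF-Y), TATAAA (the TATA box) and AAGCTT (the HindIII site); matches on the opposite strand read as the reverse complement.
Fgfbp3: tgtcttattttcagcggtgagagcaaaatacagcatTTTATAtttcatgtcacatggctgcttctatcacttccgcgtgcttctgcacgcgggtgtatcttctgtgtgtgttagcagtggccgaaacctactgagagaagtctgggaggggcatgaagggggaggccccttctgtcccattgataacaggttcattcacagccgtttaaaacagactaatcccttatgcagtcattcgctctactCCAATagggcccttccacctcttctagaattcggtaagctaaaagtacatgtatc
Kif11: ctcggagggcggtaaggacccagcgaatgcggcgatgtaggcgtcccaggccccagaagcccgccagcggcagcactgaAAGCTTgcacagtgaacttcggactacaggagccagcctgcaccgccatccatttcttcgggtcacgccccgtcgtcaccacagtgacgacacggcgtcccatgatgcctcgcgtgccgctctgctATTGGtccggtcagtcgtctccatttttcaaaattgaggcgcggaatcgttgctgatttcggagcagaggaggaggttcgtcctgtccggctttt
Hhex: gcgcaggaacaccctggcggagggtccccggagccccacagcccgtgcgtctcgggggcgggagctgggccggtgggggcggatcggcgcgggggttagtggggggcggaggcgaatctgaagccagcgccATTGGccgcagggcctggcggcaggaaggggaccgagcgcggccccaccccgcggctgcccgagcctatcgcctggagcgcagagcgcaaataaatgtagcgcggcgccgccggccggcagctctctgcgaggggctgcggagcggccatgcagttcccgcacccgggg
Pqbp1: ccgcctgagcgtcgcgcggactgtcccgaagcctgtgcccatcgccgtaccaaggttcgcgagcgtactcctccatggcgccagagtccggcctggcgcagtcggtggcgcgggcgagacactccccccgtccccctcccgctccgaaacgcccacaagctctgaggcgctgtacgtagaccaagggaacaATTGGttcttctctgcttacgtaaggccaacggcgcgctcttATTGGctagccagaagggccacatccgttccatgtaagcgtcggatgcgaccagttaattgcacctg
Timm17b: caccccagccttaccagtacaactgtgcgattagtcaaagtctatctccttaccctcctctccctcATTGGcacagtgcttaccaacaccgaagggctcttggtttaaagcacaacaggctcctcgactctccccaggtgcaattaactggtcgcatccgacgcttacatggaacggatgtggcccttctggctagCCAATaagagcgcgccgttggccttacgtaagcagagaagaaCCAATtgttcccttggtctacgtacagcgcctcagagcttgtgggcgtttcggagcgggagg
Mcm3: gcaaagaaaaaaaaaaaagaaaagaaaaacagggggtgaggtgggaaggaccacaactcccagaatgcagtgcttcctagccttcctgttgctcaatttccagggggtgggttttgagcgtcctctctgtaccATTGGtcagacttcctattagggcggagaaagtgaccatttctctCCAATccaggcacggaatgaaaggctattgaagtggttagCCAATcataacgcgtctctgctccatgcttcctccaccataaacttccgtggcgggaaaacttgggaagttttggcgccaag
Hjurp: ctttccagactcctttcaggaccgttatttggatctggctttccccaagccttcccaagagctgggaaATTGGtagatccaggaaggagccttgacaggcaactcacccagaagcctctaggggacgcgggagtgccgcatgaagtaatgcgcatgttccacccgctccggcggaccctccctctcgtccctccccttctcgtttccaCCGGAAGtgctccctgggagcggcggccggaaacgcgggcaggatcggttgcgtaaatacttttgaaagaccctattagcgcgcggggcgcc

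Each of the 7 promoters held CCAAT on one strand or the other, the Hjurp promoter also held CCGGAAG, and the Fgfbp3 promoter also held TATAAA. The Kif11 promoter held a HindIII site because it spans the start of its bait fragment, chr19:37376212-37377006. Of 9353 promoters that lay within 1 bait fragment, 0 held AAGCTT, and of 515 that crossed a fragment edge 98.6% did, so the fragment coordinates and the RefSeq positions are on the same build. CCAAT was found in 36.5% of the 4180 promoters at baits with a WT-only pair, in 39.8% of the 2204 at baits with WT pairs but no WT-only pair, and in 38.2% of all 21238 promoters of the same length. In the same order AGATAA was found in 7.34%, 7.80% and 9.65%, CCGGAAG in 16.8%, 16.5% and 11.6%, and TATAAA in 8.64%, 8.48% and 12.6%. The promoters of baits with and without WT-only pairs thus carried these letters at similar shares, and both held CCGGAAG more often, and AGATAA and TATAAA less often, than promoters at large. A match is a run of letters, not a measured binding site.

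The word "lost" fits few of these pairs. Most stood a little over the threshold in WT and a little under it in the mutants. Their median score was 6.07 and 6.11 in the WT libraries, 3.48 and 4.10 in Npm1c, 3.86 and 3.89 in Flt3-ITD, and 3.55 and 3.65 in DM. In single mutant libraries 17.5% to 27.1% of them still reached 5. Of the 9087 pairs, 2428 (26.7%) reached 5 in no mutant library, 2980 in 1, 2456 in 2 and 1223 in 3. Only 896 (9.86%) scored under 4 in all 6 mutant libraries, 272 under 3, 108 under 2 and 49 under 1. In the 2428 pairs that reached 5 in no mutant library, every mutant library lay below both WT libraries by the rule itself.

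**Figure D1:**
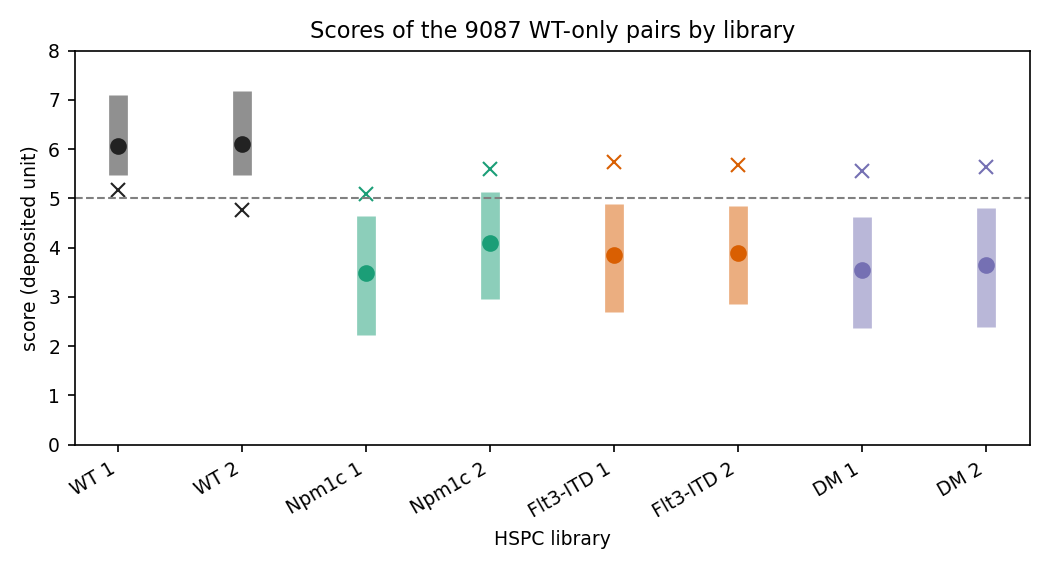
Scores of the 9087 WT-only pairs in each HSPC library, in the deposited score unit. Dots are medians, thick bars run from the lower to the upper quartile, crosses are medians over all 88624 listed pairs, and the dashed line is the threshold of 5; the mutant medians lie between 3.48 and 4.10, under the crosses, while the WT medians lie at 6.07 and 6.11.

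The size of the difference was taken as the WT mean of log2(score + 1) minus the highest of the 3 mutant group means. Its median was 0.39, and it ran from -0.72 to 5.03. It exceeded 1 in 780 pairs (8.58%), 2 in 121 and 3 in 25, and it was below 0 in 631 pairs, where a mutant group with 1 library under 5 had a higher mean than WT. The WT-only pairs were also among the weaker WT pairs. Both WT libraries reached 6 in 30.2% of them, against 77.2% of the 9049 WT pairs that all 3 mutant groups held, and both reached 10 in 0.715% against 19.2%.

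Just inside the threshold stood a pair of Aqp1, a water channel of red cells and endothelium, 102 kb from its bait, at 5.04 and 5.00 in WT, 2.39 and 4.43 in Npm1c, 1.83 and 3.54 in Flt3-ITD, and 3.38 and 3.16 in DM. A pair of Bach1, a haem-regulated repressor, stood at 6.80 and 5.00 in WT, and each mutant group had 1 library above and 1 below 5: 4.64 and 6.13 in Npm1c, 5.34 and 4.94 in Flt3-ITD, and 5.51 and 3.53 in DM. Just outside stood a pair of St3gal6, a sialyltransferase, at 6.55 and 11.0 in WT, which Flt3-ITD held at 5.66 and 5.00, with Npm1c at 5.18 and 4.21 and DM at 4.91 and 2.71. Mutant scores near the line varied widely: a pair of Snn, just inside, ran from 0.382 to 4.08 over the 6 mutant libraries, and a pair of Fadd, a death-receptor adaptor, just outside, from 4.05 to 6.91.

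Pairs held by 1 group alone were found in every group. Npm1c alone held 10784 pairs (29.1% of its 37062), Flt3-ITD alone 13657 (30.1% of 45413) and DM alone 16387 (37.9% of 43228). All 4 shares depend on the same threshold. The WT-only pairs had a median span of 220 kb, against 253, 272 and 239 kb for the pairs held by Npm1c, Flt3-ITD and DM alone, and 160 kb for those held by all 4 groups.

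The partners of the WT-only pairs differed from those of the other single-group pairs in kind. The other end was itself a bait in 28.1% of WT-only pairs, and in 14.8%, 15.8% and 21.4% of the Npm1c, Flt3-ITD and DM single-group pairs. It held a gene start in 24.5%, against 14.7%, 15.5% and 18.5%, and it overlapped a gene in 77.3%, against 70.0%, 71.0% and 70.0%. The other-end fragment had a median length of 4019 bp, against 2788, 2693 and 3044 bp. Over all WT pairs the median length was 3819 bp and 31.5% of other ends were baits, so WT-only pairs were near other WT pairs in both. These are shares over pairs, which are not replicates, and they were not tested.

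In WT neutrophils, the readout that the choice did not use, 772 of the WT-only pairs (8.50%) were listed, meaning 5 or more in both neutrophil libraries. The same share was 16.8% of the WT pairs held by 1 mutant group, 26.8% of those held by 2, and 48.1% of those held by all 3. Over all WT pairs it was 25.7%, and over all listed HSPC pairs 15.9%. For the pairs held by Npm1c, Flt3-ITD or DM alone it was 5.60%, 7.19% and 8.93%. The share of WT-only pairs that neutrophils listed therefore lay in the range of pairs held by any other single group, and below that of WT pairs that any mutant group held as well. Its value depended on the rule: it was 13.8%, 26.1% and 39.2% at thresholds of 6, 8 and 10, and 4.45% when either library sufficed for a mutant group. The shares for WT pairs held by 1, 2 and 3 mutant groups moved with it. They were 50.7%, 61.2% and 76.5% at a threshold of 10, and 8.55%, 14.3% and 35.5% under the either-library rule. The order was thus the same. At thresholds of 8 and 10, most of the pairs counted as WT-only were held by a mutant group at 5. Of the 65 pairs WT-only at 5 with both WT libraries at 10 or more, neutrophils listed 18.5%.

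**Figure D2:**
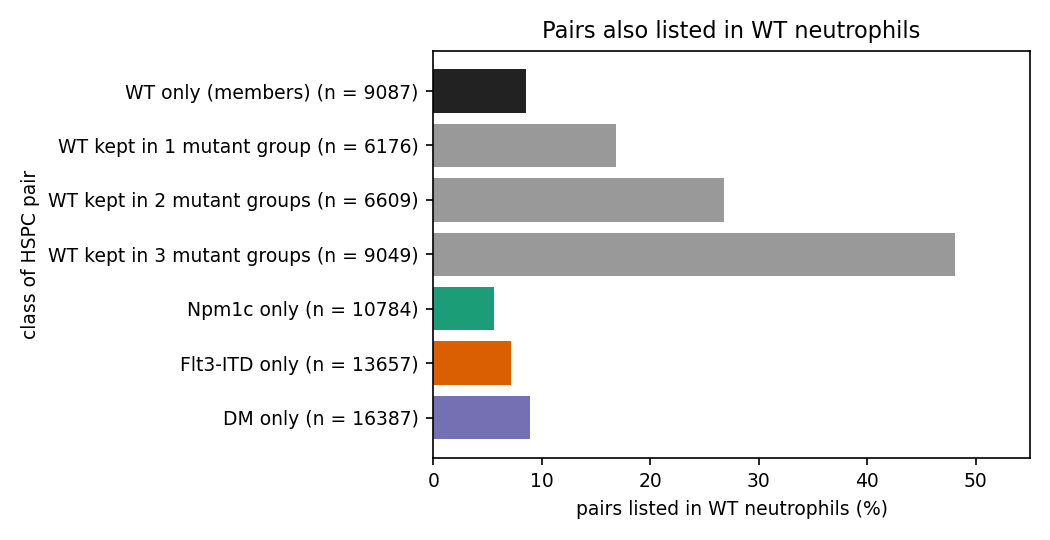
Share of HSPC pairs also listed in WT neutrophils (x axis, percent), by which HSPC groups held them (y axis, with the number of pairs). The share is 8.50% for the WT-only pairs, climbs from 16.8% to 48.1% with the number of mutant groups that held a WT pair, and is 5.60% to 8.93% for pairs of 1 mutant group.

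The gap was present at each distance and at each WT score. Under 100 kb, neutrophils listed 12.3% of the WT-only pairs and 51.5% of the pairs held by all 4 groups, and between 500 kb and 1 Mb they listed 3.08% and 31.4%. Where the lower WT score was 5 to 5.5 the shares were 7.40% and 36.1%, and where it was 10 or more they were 18.5% (12 of 65) and 65.5%. On baits that had any neutrophil pair, the shares were 13.2% and 55.8%. Counting a neutrophil contact of the same bait within 10 kb as shared, they were 22.4% and 65.7%.

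Among the pairs that WT progenitors and WT neutrophils both held, leaving out those with an end on unplaced sequence, scores were compared with limma. Of 7902 pairs, 769 of them WT-only, limma called 0 higher and 0 lower in neutrophils at an adjusted p of 0.05 (0% of those tested in each direction), with 1004 (12.7%) at an unadjusted p under 0.05 and a smallest adjusted p of 0.23. Of the WT-only pairs 52 (6.76%) had an unadjusted p under 0.05. The median difference, neutrophils minus progenitors in log2(score + 1), was 0.12 for the WT-only pairs and 0.00 for the others. Every pair tested had entered at 5 or more in all 4 libraries, and the WT progenitor scores were among those that chose the WT-only pairs, so the size of a difference was bounded by selection and nothing is read from these counts about the WT-only pairs.

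Ranked by the lower of their 2 neutrophil scores, with a gene at the bait and both ends on placed chromosomes, the leading WT-only pairs joined histone genes, and joined Kif11 to Fgfbp3. A WT-only pair with an unplaced sequence reached 98.9 in neutrophil replicate 2. The bait of H1f5, a linker histone, and H3c11 met a fragment with the histone genes H2ac6 and H2bc4, 1900 kb away on chromosome 13. It scored 21.6 and 21.7 in neutrophils and 6.21 and 14.4 in WT progenitors. In the mutants it scored 0 and 12.5 in Npm1c, 1.09 and 4.23 in Flt3-ITD, and 1.22 and 1.52 in DM, so that 1 Npm1c library lay inside the WT range. Slc40a1, the iron exporter ferroportin, met a fragment 66.0 kb away at 15.5 and 13.4 in neutrophils and 5.60 and 7.66 in WT progenitors, against 3.78 and 3.78 in Npm1c, 5.42 and 4.31 in Flt3-ITD, and 3.62 and 3.47 in DM. The bait of Ccng1, the p53 target cyclin G1, met Mat2b at 13.2 and 12.8 in neutrophils and 7.70 and 7.92 in WT progenitors, but at 4.30 to 7.12 in the 6 mutant libraries, just short of the rule in each group.

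A dense block of WT-only contacts under 1 Mb lay on chromosome 19, reaching from Fgfbp3, which carries fibroblast growth factors, to Kif11, the motor that separates spindle poles in mitosis (chr19:36910759-37385337). Its 6 baits held 68 pairs in WT progenitors, and 66 of them (97.1%) were WT-only; Npm1c held 7 pairs of these baits, Flt3-ITD 2 and DM 2. All 14 WT pairs of Fgfbp3 were WT-only, as were all 7 of Btaf1, an ATPase that removes the TATA-binding protein from DNA, and all 5 of Kif11. So were 8 of 9 at the bait shared by Cpeb3, a regulator of translation, and Marchf5, a mitochondrial ubiquitin ligase, 17 of 18 at a bait 6229 bp from Marchf5, and 15 of 15 at a bait 2172 bp from Ide, the insulin-degrading enzyme.

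The other ends of all 66 pairs lay between the neighbouring baits of Tnks2 and Hhex, at spans of 130 to 465 kb with a median of 358 kb. Their median score was 6.82 and 9.89 in WT, 1.95 and 2.47 in Npm1c, 2.31 and 2.24 in Flt3-ITD, and 2.35 and 2.40 in DM. No pair of the block was at 0 in all 6 mutant libraries, and 44 of the 66 reached 5 in none. Neutrophils, also from Wild-type mice, listed 16 of the 66 (24.2%), with medians of 8.12 and 8.72. These medians cover only listed pairs, which are at 5 or more by that listing, and the other pairs of the block have no neutrophil score here. Within progenitors, all 6 mutant medians lay under both WT medians, an order that the choice of pairs favours and that held over all WT-only pairs. The mutant medians of the block were below those over all WT-only pairs, which ran from 3.48 to 4.10.

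The contact between the Fgfbp3 and Kif11 fragments was captured from both sides, 458 kb apart. From the Kif11 bait it scored 20.2 and 20.3 in WT, 0 and 1.23 in Npm1c, 0 and 1.96 in Flt3-ITD, 4.58 and 0 in DM, and 17.0 and 16.1 in neutrophils. From the Fgfbp3 bait it scored 15.4 and 13.6, 0 and 1.56, 0 and 1.70, 3.19 and 0, and 15.4 and 16.3 in the same order. In both captures all WT and neutrophil libraries lay above all 6 mutant libraries. This order follows from selection, since no mutant library reached 5 here. WT scores are at 5 or more by the choice, and neutrophil scores by the listing. Of the 2428 WT-only pairs that reached 5 in no mutant library, neutrophils listed 108 (4.45%). Kif11 with the fragment just past Fgfbp3 reached 23.4 and 34.6 in WT and at most 2.98 in any mutant library.

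Hhex, a homeobox factor of early blood and lymphoid progenitors whose bait follows Kif11, did not share this pattern. WT held 9 of its 19 listed pairs, Npm1c 2, Flt3-ITD 15 and DM 16, and only 2 of the 9 were WT-only. One of these reached back 520 kb to the fragment beside Fgfbp3, at 6.11 and 8.57 in WT, 0.00622 and 4.89 in Npm1c, 0.0291 and 4.82 in Flt3-ITD, and 2.24 and 0.301 in DM. The block takes in the segment from Ide to Fgfbp3, which is known as background to vary in copy number among C57BL/6J mice. No copy number was measured here, so a difference in contacts, a difference in copy number between the mice and an effect of the named genotypes cannot be told apart in the scores of these baits.

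**Figure D3:**
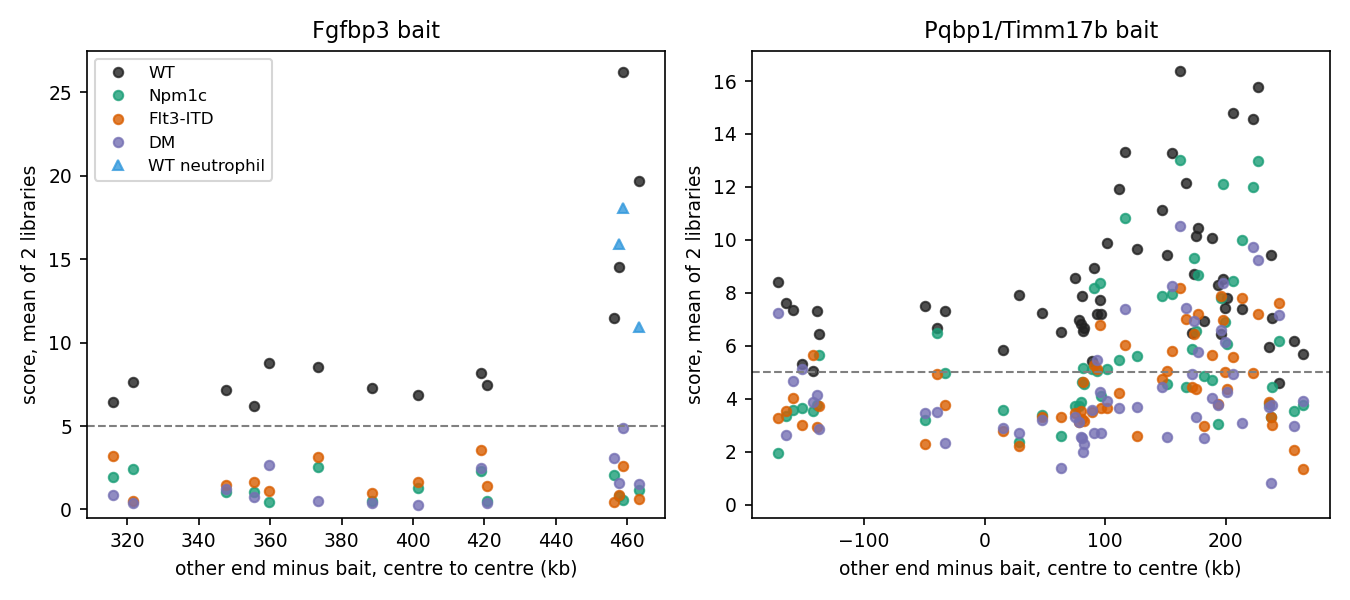
Mean score of 2 libraries (y axis) for every listed pair of the Fgfbp3 bait (left, 14 pairs) and the Pqbp1/Timm17b bait (right, 55 pairs) against the distance of the other end from the bait in kb (x axis); circles are HSPC groups, triangles WT neutrophils, and the dashed line is 5. All 14 Fgfbp3 pairs lie 316 to 463 kb to one side with WT above every mutant group, while at Pqbp1/Timm17b the groups intermix.

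Chromosome X had the highest share of WT-only pairs. Of the 695 WT pairs with a bait on X, 384 (55.3%) were WT-only, against 8703 of 30226 (28.8%) on the autosomes, where single chromosomes ran from 24.8% to 35.4%. X also went against the autosomes in how many pairs each group held. On X, WT held 695, Npm1c 615, Flt3-ITD 519 and DM 398, while on the autosomes WT held 30226, Npm1c 36444, Flt3-ITD 44893 and DM 42827. Over all listed X pairs the median score was 5.5 and 5.67 in WT, 5.15 and 5.53 in Npm1c, 4.92 and 5.00 in Flt3-ITD, and 4.13 and 4.66 in DM, so the WT and Npm1c ranges overlapped and the DM libraries lay lowest. The share of pairs held by the group alone was also higher on X than on the autosomes for Npm1c (41.3% against 28.9%) and Flt3-ITD (36.8% against 30%), and not for DM (36.2% against 37.9%). Neutrophils listed 17 of the 384 (4.43%), against 8.68% of the autosomal WT-only pairs, and they also listed fewer of the pairs held by all 4 groups on X (29.9% against 48.3%). The gap between X and the autosomes in WT-only share, 26.5 percentage points, was 11.7 when a mutant group held a pair by either library.

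**Figure D4:**
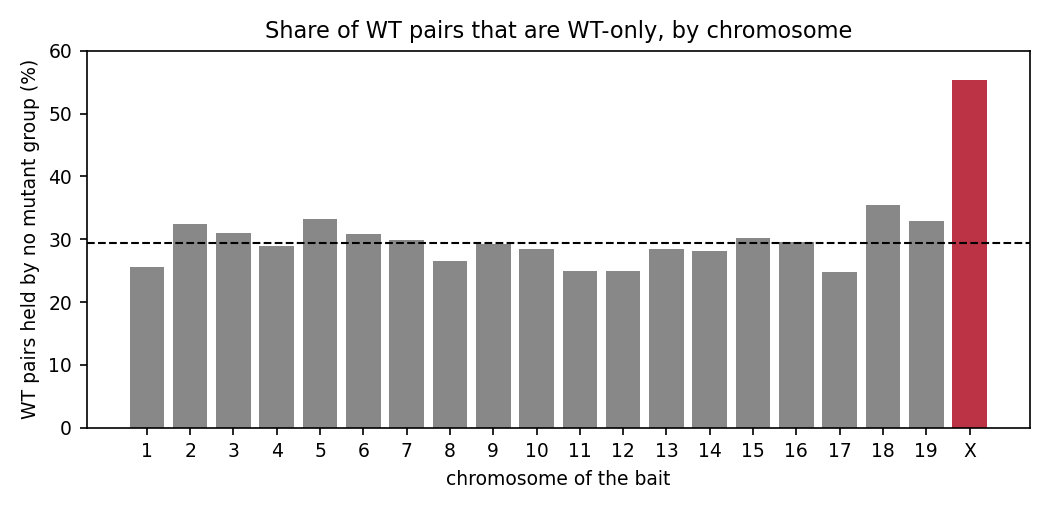
Percent of the WT pairs with a bait on each chromosome that no mutant group held (y axis), by chromosome (x axis); the dashed line is 29.4%, the share over all WT pairs. X stands at 55.3% and the autosomes between 24.8% and 35.4%.

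The sexes of the mice were not in the labels used here, and the Y chromosome had only 6 listed pairs, with library medians of 0.900 to 4.96. Every library scored above 0 on at least 4 of the 6, Flt3-ITD replicate 1 with 2 at 0 and Flt3-ITD replicate 2 and DM replicate 1 with 1 each. The part of sex in the X result was not tested.

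On X, 152 of the 384 WT-only pairs came from baits between 7 and 9 Mb, where 62.8% of the 242 WT pairs were WT-only; outside it the share was still 51.2%. This gene-dense stretch holds Gata1, the master factor of red cells and megakaryocytes, and Was, an actin regulator of blood cells. The bait shared by Pqbp1, a splicing-linked protein, and Timm17b, a part of the mitochondrial import machinery (chrX:7899080-7906072), had 29 WT-only pairs of 47, with 21 pairs held by Npm1c, 12 by Flt3-ITD and 13 by DM. Its 29 pairs ran from 15.3 to 265 kb and had medians of 6.81 and 8.0 in WT, 4.21 and 3.96 in Npm1c, 3.44 and 3.18 in Flt3-ITD, and 2.45 and 3.23 in DM.

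The bait of Hdac6, a cytoplasmic deacetylase, with Eras and Pcsk1n had 18 WT-only pairs of 32. That of Otud5, a deubiquitinase, Pim2, a survival kinase, and Slc35a2 had 14 of 20. Of these genes, only Eras started in the first bait, and Pim2 and Slc35a2 in the second. Neutrophils listed 0 pairs of the Pqbp1/Timm17b and Hdac6 baits. At the bait named for Gata1 (chrX:7974091-7980606), in which no gene start was found, all 5 WT pairs were WT-only. Npm1c held 1 pair of this bait and the other mutants 0. Gata1 with the Pqbp1/Timm17b fragment, 74.8 kb away, scored 7.31 and 8.55 in WT, 3.00 and 3.20 in Npm1c, 3.99 and 2.28 in Flt3-ITD, and 3.16 and 3.17 in DM, with all mutant libraries below both WT libraries. Pcsk1n with Was was captured from both sides, at 8.61 and 12.3 and at 8.97 and 11.8 in WT, and at 2.19 to 6.72 in the mutant libraries.

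Over 414 windows of 1 Mb with at least 20 WT pairs, the median share of WT-only pairs was 29.2%, with a range of 2.86% to 88.5%. The windows at 36 to 37 Mb (23 of 26) and 37 to 38 Mb (47 of 59) of chromosome 19 were among the highest. So was the window at 62 to 63 Mb of chromosome 4, with 18 of 22, and there the bait of Cdc26, a subunit of the anaphase-promoting complex, and Prpf4, a splicing factor, had 10 of 10. Of the 30 windows above 50%, 5 lay on X, which had only 12 of the 414 windows.

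Otherwise the WT-only pairs were spread thinly. They fell on 4915 of the 7669 baits with a WT pair (64.1%), and 2979 baits had just 1. Only 34 baits had 10 or more, 441 pairs in all. On 1836 baits every WT pair was WT-only, but 113 of those had 3 or more WT pairs, and just 17 of the 113 had no pair in any mutant. Of the 4915 baits, 4369 had at least 1 pair held by a mutant group, so most of these baits had contacts in a mutant. A mutant-held contact of the same bait ended within 10 kb in 52.7% of WT-only pairs (30.2% when only touching fragments were counted). For the pairs of Npm1c, Flt3-ITD and DM alone the corresponding shares were 56.5%, 59.6% and 51.1%. The share was higher, at 72.7%, 80.5% and 84.9%, for WT pairs held by 1, 2 and 3 mutant groups, and 72.1% over all WT pairs.

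Outside these loci, the baits with most WT-only pairs differed in how many pairs the mutants held. The bait in Ybx3, a cold-shock protein that binds RNA (chr6:131375361-131380865), had 23 of 79, and Npm1c held 72 of its pairs, Flt3-ITD 93 and DM 64. The bait of Armc5 and Tgfb1i1, a focal adhesion protein, held no gene start and had 17 of 44. Npm1c held 35 of its pairs, Flt3-ITD 36 and DM 16. The bait in Ncapg2, a condensin II subunit (chr12:116422842-116426494), had 15 of 21, against 10 held pairs for Npm1c, 2 for Flt3-ITD and 0 for DM. The bait in Ep400, a chromatin remodeller, had 14 of 16, with 4, 7 and 1 pairs in the mutants. DM held the fewest pairs at each of these 4 baits, although each set of WT-only pairs had passed the same rule.

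Where a contact between baits was listed from both sides, the sides often disagreed. The other end was itself a bait in 2549 WT-only pairs. Of these, 700 were listed from both sides, and for the rest no progenitor group held the reverse. Of the 700, 404 (57.7%) were WT-only both ways, and in 296 a mutant group held the reverse. Among pairs listed from both sides, the share with the same class both ways was 57.9%, 66.8% and 59.7% for pairs of Npm1c, Flt3-ITD and DM alone. Besides Kif11 with Fgfbp3, the strongest to be WT-only both ways joined Klra17, an NK receptor gene, to Ybx3, and H4c11 to H4c6, 2 histone genes. Both of these had 1 high library in Flt3-ITD. H4c11 with H4c6 scored 9.88 and 24.4 in WT and 0.991 and 22.1 in Flt3-ITD, and Klra17 with Ybx3 scored 16.1 and 10.2 in WT and 2.25 and 12.7 in Flt3-ITD, so the ranges overlapped. Golim4, a Golgi protein, with Etfdh, which passes electrons to ubiquinone, 3670 kb apart, scored 10.4 and 12.8 in WT against 0 to 2.33 in the 6 mutant libraries, with no overlap.

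Exact zeros were few. Only 24 WT-only pairs (0.264%) were at 0 in all 6 mutant libraries, which is 0.0776% of all WT pairs and 0.0271% of all listed pairs. Pairs at 0 in all 6 libraries of the other groups made up 0.538% of the Npm1c-only, 0.564% of the Flt3-ITD-only and 0.250% of the DM-only pairs. Of the 24, 23 spanned over 1 Mb or joined 2 chromosomes, and neutrophils listed 0. In 15 of the 24, the other end was at 0 in all mutant libraries for every pair it was listed in. This holds by definition for an other end listed in 1 pair. Without such other ends the count was 9. It was 16 when the other ends left out were those with at least 3 listed pairs, all at 0 in a mutant library. At least 1 mutant zero was found in 869 WT-only pairs (9.56%): in 82.5% of the 394 that spanned over 1 Mb or 2 chromosomes, and in 6.26% of the rest. Both libraries of a mutant group were at 0 in 93 WT-only pairs for Npm1c, 85 for Flt3-ITD and 129 for DM.

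Of the 24 all-zero pairs, 10 had an end within 250 kb of the Hjurp promoter fragment on chromosome 1. The fragment with the start of Hjurp, the chaperone that loads the centromeric histone CENP-A (chr1:88276241-88278577), was the other end of 6 listed pairs. All were WT-only, over 1 Mb and at 0 in all 6 mutant libraries. Of all WT-only pairs over 1 Mb or between chromosomes, 82.5% had at least 1 mutant zero. Zeros tied to the fragment and a measured absence of each contact cannot be told apart here. Mcm3, a subunit of the replicative helicase, met the Hjurp fragment over 67.5 Mb at 32.7 and 12 in WT. Tcea1, an elongation factor of RNA polymerase II, met it at 22.4 and 44.9, and Ptp4a1, a phosphatase, at 6.80 and 18.6. The WT replicates differed by up to 3.81-fold in these pairs.

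Neighbouring fragments showed that the stretch was not silent in the mutants. The 159 listed pairs over 1 Mb with an end within 250 kb of it reached 5 in 51 and 64 cases in the WT libraries, in 63 and 75 in those of Npm1c, in 93 and 108 in those of Flt3-ITD and in 58 and 53 in those of DM. They were at exactly 0 in 80 and 63 cases in WT, and in 39 to 83 cases in the mutant libraries. The fragment next to the Hjurp pair of fragments on one side (chr1:88265935-88274374) had 3 such pairs, all held by DM, and WT held 0 of them. Other fragments of the stretch, such as chr1:88213919-88219911 with 4, 2, 6 and 3 pairs for WT, Npm1c, Flt3-ITD and DM, were held by every group.

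**Figure D5:**
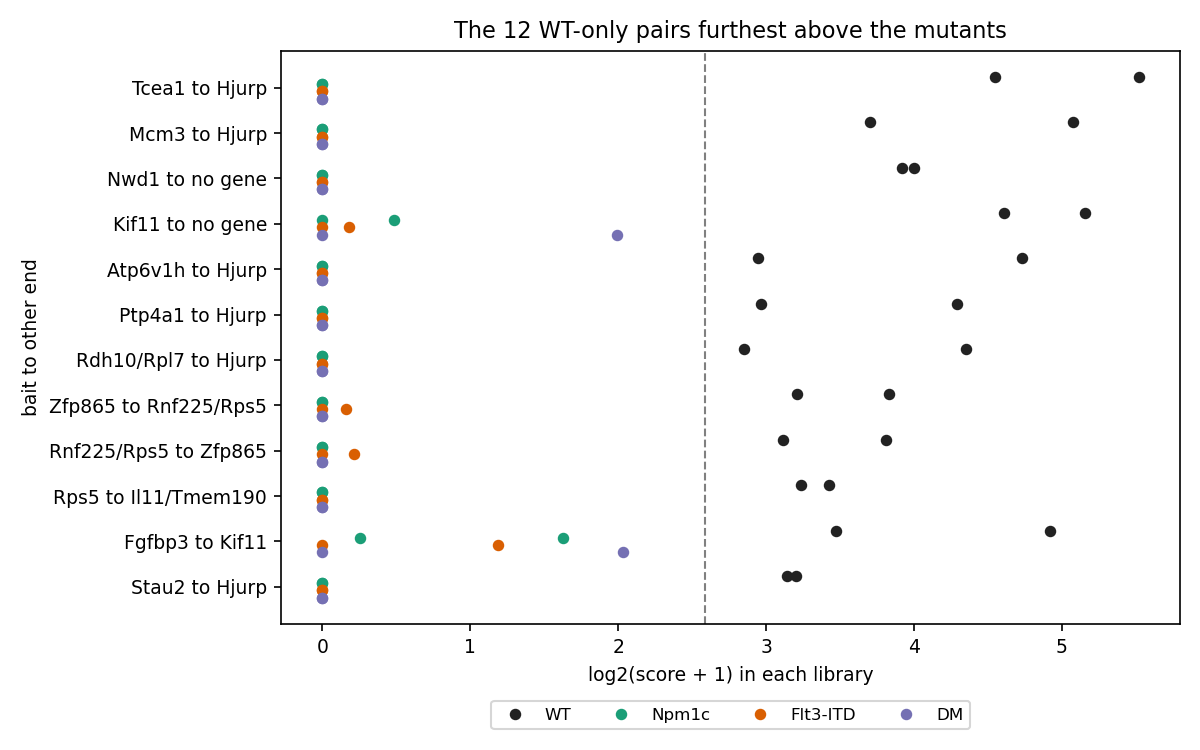
log2(score + 1) in each HSPC library (x axis) for the 12 gene-bearing WT-only pairs with the largest WT minus highest mutant mean (y axis, bait to other end); each dot is a library, coloured by group, and the dashed line is a score of 5. All WT dots lie right of the line and all mutant dots left of it, and 8 of the 12 pairs are at 0 in all 6 mutant libraries.

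Other zeros were shared by all listed pairs of a fragment in single libraries. The fragment with Mamstr and Rasip1 (chr7:45635574-45643012) was the other end of 9 listed pairs, and all 9 were WT-only. They joined it to baits 22.3 to 649 kb away, among them those of Fut1, Bax with Ftl1, Tead2 and Snrnp70. All 9 were at exactly 0 in Npm1c replicate 1, Flt3-ITD replicate 1, DM replicate 1 and DM replicate 2. None was at 0 in WT (5.08 to 12.1), in Npm1c replicate 2 (1.71 to 12.4) or in Flt3-ITD replicate 2 (2.18 to 9.93). Snrnp70, a spliceosome protein, scored 5.94 and 8.60 there in WT, 0 and 12.4 in Npm1c, and 0 and 9.93 in Flt3-ITD, so the non-zero mutant libraries were above WT.

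Each library had such fragments: among other ends with at least 3 listed pairs, between 14 and 31 per library were at 0 for all their pairs, 24 and 31 of them in the WT libraries. They held 65 WT-only pairs (0.715% of all WT-only pairs), and 25 of these had such a library in all 3 mutant groups. Only 4338 WT-only pairs lay on other ends with at least 3 listed pairs, and the rest could not be counted here. How a fragment comes to score 0 throughout a library is not given in the sources used here, and a zero of this kind need not be a measured absence of contact.

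Under 1 Mb and off chromosome 19, the WT-only pairs with the largest differences were mostly weak in WT. B3gnt3, a glycosyltransferase, with a fragment in Slc5a5, the iodide transporter, 811 kb away, scored 11.8 and 7.16 in WT, 0 and 0.588 in Npm1c, 0.870 and 0 in Flt3-ITD, and 0 in both DM libraries. Nenf, a secreted neurotrophic factor, with Dtl, which targets replication licensing factors for destruction, 216 kb away, scored 8.45 and 11.3 in WT and 0.546 to 2.32 in the mutant libraries. These 2 pairs were picked out after their values were seen. A difference over 2 log2 units was found in 38 pairs under 1 Mb, 12 of them in the chromosome 19 block and its neighbours between 36 and 38 Mb, and in 83 longer pairs.

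Gene groups were counted by the share of their WT pairs that were WT-only, beside 29.6% (7146 of 24102) over all genes with a bait, where the median gene had 33.3%. Histone genes had 12.4% (38 of 307 pairs, median gene 12%), interferon response genes 16.9% (11 of 65, median 27.4%), ribosomal protein genes 22.3% (35 of 157, median 12.1%), and stem and progenitor factors 24.1% (14 of 58, median 22.2%). Near the share of all genes were genes of cohesin, CTCF and chromatin regulators at 26.6% (17 of 64, median 20.0%), cell cycle and replication genes at 30.4% (42 of 138, median 22.5%), myeloid factors at 30.6% (11 of 36, median 25.0%), genes of STAT5, ERK and feedback at 31.2% (25 of 80, median 0%) and erythroid genes at 32.0% (33 of 103, median 28.6%). Mature neutrophil genes had 35.5% (11 of 31, median 33.3%). Lists of other cell types had few WT pairs: 24.2% of 33 for megakaryocyte, 16.7% of 18 for B cell, 24.1% of 29 for T and NK cell, 44.4% of 18 for macrophage and dendritic, 25.0% of 8 for basophil, eosinophil and mast cell, and 53.6% of 28 for neural genes. Pairs are not replicates, and none of these shares was tested.

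Within the blood lists, Elane, the neutrophil elastase of early granulocytes, had 4 WT-only pairs of 16. The one with the highest lower WT score, 274 kb away at Midn, stood at 7.78 and 7.71 in WT, 4.77 and 7.50 in Npm1c, 4.29 and 8.58 in Flt3-ITD, and 4.34 and 8.15 in DM, with overlap. Another, 159 kb away in Hcn2, scored 6.51 and 8.61 in WT, 1.17 and 2.92 in Npm1c, 2.41 and 3.79 in Flt3-ITD, and 2.90 and 3.09 in DM, with no overlap. Mmp8, the neutrophil collagenase, met a fragment 332 kb away at 11.1 and 6.42 in neutrophils and 6.10 and 5.91 in WT progenitors. In the mutants this pair scored 3.08 and 2.91 in Npm1c and 3.17 and 1.14 in Flt3-ITD, but 3.10 and 9.77 in DM, where 1 library exceeded both WT progenitor libraries. S100a8, a calcium-binding protein of neutrophils, met the S100a7a fragment 19.7 kb away at 6.72 and 10.5 in WT and at 3.52 to 6.70 in the mutant libraries, just under the lower WT value at its highest.

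The bait shared by Idh1, a metabolic enzyme gene mutated in leukaemia, and Pikfyve met a fragment in Kansl1l 1580 kb away. This pair scored 8.15 and 7.26 in WT and 0.218 to 1.58 in the mutant libraries. Wapl, which releases cohesin from DNA, met a fragment 49.3 kb away at 9.73 and 9.13 in WT, 4.63 and 7.21 in Npm1c, 4.35 and 2.95 in Flt3-ITD, and 0.765 and 3.16 in DM. Klrk1, the NK receptor NKG2D, met a fragment 1790 kb away at 7.02 and 8.71 in WT, 4.11 and 0.687 in Npm1c, 1.06 and 0 in Flt3-ITD, and 0 in both DM libraries. In these 3 pairs every mutant library lay below both WT libraries. By the rule itself the same held in the 2428 WT-only pairs (26.7%) that reached 5 in no mutant library. That share is a lower bound, since Wapl reached 7.21 in an Npm1c library and is not among them. The full share over all WT-only pairs was not counted. Mycn, by contrast, was WT-only for a pair 531 kb away with 9.17 and 6.20 in WT, while Npm1c scored 2.96 and 16.8 and Flt3-ITD 4.52 and 13.7.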

How the data were processed

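Promoter-capture Hi-C scores of 10 libraries, 2 per group, were analysed. Fixation lasted 10 minutes in 1% formaldehyde, HindIII cut the chromatin, and 39684 probes captured 22047 promoters, per the labels' protocols. The genome build was mm10, per the submitters' processing notes. The deposited files give 1 score per pair and library, made by the authors and never negative; its scale, the caller and the aligner are not given in the sources used here. Per the file headers, another column gives the distance between bait and other end. The files hold no counts, so depth is unknown and no counting interval is given. The HSPC files list only pairs that some HSPC group held (5 or more in both libraries), and the neutrophil files those at 5 or more in both neutrophil replicates.

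The pairs, gene lists and rules for named pairs were chosen with earlier results of these data known. Named were the 12 gene-bearing pairs with the largest difference, the 10 baits and 8 other ends with the most WT-only pairs, the 10 strongest in neutrophils by their lower score, the 10 strongest at 0 in all mutants, the 6 strongest reciprocal pairs, the top 3 per gene list and those nearest the threshold; examples of each are given.

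A bait was named by every protein-coding gene of the GRCm38.p6 table that began or ended in it. Such a gene was found for 77.2% of 12186 baits. The bait held a gene start in 64.1% of the WT-only pairs, so a named gene need not start in its bait. Among the baits without a gene start were those named for Gata1, Tcea1, Slc40a1, Nenf, and Armc5 with Tgfb1i1. The bait of the Mmp8 pair held the start of Mmp27 only. The only test was limma 3.58.1 in R 4.3.3 on log2(score + 1), WT neutrophils against WT HSPCs, two-sided, Benjamini-Hochberg at 0.05. It used pairs held in both cell types with both ends on autosomes or X, was tested on simulated data, and was run without a replicate block. Same-numbered libraries did not deviate together (correlation -0.006). Counts used Python 3.11.15 with pandas 2.3.3. The alternatives were other thresholds and rules for a mutant-held pair, quantile normalization, other pseudocounts, subsets of pairs and leaving out each library.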

Additional observations from a re-analysis of the deposited data

How the results depend on the processing

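The count of WT-only pairs depended on the threshold and on the rule for a mutant-held pair. It was 4613, 1498 and 558 at thresholds of 6, 8 and 10 set for WT and mutants alike, against 9087 at 5. At 5 it was 5190 or 2428 when a mutant group held a pair by its mean or by either library. It was 6627 to 9087 with single libraries left out; leaving out a WT library cannot change it, since the list is already filtered. Under the same 5 settings the neutrophil share, 8.50%, was 13.8%, 26.1%, 39.2%, 5.66% and 4.45%, and the share with a mutant-held contact nearby, 52.7%, was 49.0%, 43.2%, 36.2%, 46.0% and 39.8%. With quantile normalization they were 9.19% and 50.6%, and with libraries left out 7.53% to 8.50% and 49.4% to 53.1%. The neutrophil share was 22.4% with contacts within 10 kb counted and 13.2% on baits with a neutrophil pair, and the nearby share was 30.2% for touching fragments and 72.7% within 50 kb. The count at 0 in all mutant libraries, 24, was 5 and 4 at thresholds of 8 and 10, 9 without other ends at 0 for all pairs in all mutants, and 24 to 36 with libraries left out. The excess of X over the autosomes, 26.5 percentage points, was 31.8 at a threshold of 8, 18.6 and 11.7 when a mutant group held by its mean or by either library, and 19.5 to 26.6 with libraries left out; the cause of these shifts was not tested. It was above 0 under every setting run. For the neutrophil test, limma with the replicate number as a block called 0 pairs (958 unadjusted), as did limma under both other pseudocounts, quantile normalization and each library left out (609 to 966 unadjusted); all pairs in both lists gave 29, all higher in neutrophils, where the added pairs had to reach 5 in neutrophils but not in WT progenitors. Settings added after seeing the data were those for X, for baits with a neutrophil pair and for other ends at 0 in single libraries, and the last of these left 9022 pairs.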

Other observations

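The other ends that drew most WT-only pairs after the Mamstr fragment were those of Noxa1, an activator of NADPH oxidase (chr2:25093205-25098266), with 7 of 9 WT pairs WT-only, of Fbxo46, Qpctl and Snrpd2 (chr7:19128278-19149675), with 7 of 11, and of Hspbp1, a partner of HSP70 (chr7:4672388-4689357), with 7 of 15. On the bait side, Cdk16 on X had 9 of 10 WT pairs WT-only, Crip1 9 of 11, Aplp2 9 of 12, and S100a4 with S100a5 8 of 11. Of the 377 WT-only pairs over 1 Mb on 1 chromosome, 76 lay on chromosome 13, 46 on 7, 39 on 6 and 38 on 1. All long pairs were not counted by chromosome, so these counts show no enrichment. Neutrophils listed 14 of the 377 (3.71%). At this span they listed 2.14%, 2.96% and 3.25% of the pairs of Npm1c, Flt3-ITD and DM alone, and 44.0% of those held by all 4 groups.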
